A study of Mus musculus with 12 samples.

Results

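Collagen genes are taken here as every protein-coding mouse gene whose symbol is Col, a type number, the letter a and a chain number. The rule used names and not values, and it found 44 of the 54532 genes in the deposited count table, of which 22046 are protein-coding. The study sequenced total RNA from inguinal white fat (WAT) and liver. The groups were KO fat, WT fat, KO liver and WT liver, with 3 libraries each, and KO stands, per the labels, for knockout of the microRNA cluster miR-322-503-351 while WT is wild type. All mice were male, 52 weeks old and fasted for 12 h, so age, sex and fasting were shared by every group. Whether the knockout was limited to some cells, and whether the libraries of a group came from separate animals, the labels do not say. Every p-value below therefore rests on the spread among libraries, which may be technical.

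Collagens are secreted or membrane-bound proteins in which chains wind into a triple helix, and the helix needs glycine in a fixed repeat with other residues. Fibrillar collagens such as types I, III and V form the fibrils that carry tension, type IV forms the network of basement membranes, and type VI forms beaded filaments around cells. Adipocytes are each wrapped in a basement membrane, whereas healthy hepatocytes border a space that has little of one, and excess fibrillar collagen marks fibrosis in both organs. The comparisons asked how collagen transcripts differ between the genotypes in each tissue, whether that difference is itself different in the tissues, and how the tissues differ in each genotype.

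The mature microRNAs of the cluster named in the labels are printed because their seeds can be searched for in collagen transcripts (RefSeq, GRCm38.p6, X chromosome, minus strand). They are printed 5′ to 3′ with the seed, bases 2 to 8, in capitals.

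mmu-miR-322-5p: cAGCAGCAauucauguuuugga

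mmu-miR-503-5p: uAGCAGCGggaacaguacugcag

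mmu-miR-351-5p: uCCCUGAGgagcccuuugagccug

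The seeds of miR-322 and miR-503 differ in their last base, and that of miR-351 is unrelated. A match to a seed was searched as TGCTGCT (miR-322), CGCTGCT (miR-503) and CTCAGGG (miR-351) on the transcribed strand of the longest annotated 3′ UTR (GENCODE M21). A miR-322 match was found in 9 of the 44 collagen genes, namely Col1a1, Col4a3, Col4a4, Col5a1, Col9a3, Col12a1, Col22a1, Col24a1 and Col25a1. Among all protein-coding genes tested in fat, 24.4% had one, and among those tested in liver 24.7%. Of the collagen genes tested, 5 of 31 in fat and 6 of 24 in liver had one. A miR-351 match was found in 3 collagen genes (Col1a1, Col22a1 and Col23a1), which is 2 of the 31 tested in fat and 1 of the 24 tested in liver. It was found in 15.8% of all genes tested in fat and 15.9% of those tested in liver. No collagen gene held a miR-503 match, which 4.90% of the genes tested in fat and 4.90% of those tested in liver did. The windows below are those of the transcripts that were measurable in both tissues, with the match in capitals and the coding strand shown.

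Col1a1 (chr11:94952829-94952857, plus strand): ccctcccctctTGCTGCTgctccctcccc

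Col5a1 (chr2:28039266-28039294, plus strand): aattgaacaaaTGCTGCTgaaaatacaca

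Col4a3 (chr1:82720155-82720183, plus strand): agcccatcctcTGCTGCTtcacccccttc

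Col4a4 (chr1:82450646-82450674, minus strand): cccttcagcctTGCTGCTAgaatattaac

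Col12a1 (chr9:79601131-79601159, minus strand): taagtctccagTGCTGCTtacagtttgaa

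Col4a4 held the only match followed by an A, which makes it an 8mer. Col1a1 held a second miR-322 match that overlaps the first, since its window repeats the bases TGC, and Col12a1 held another near the end of its UTR. A match is a description of the letters and does not show that a site is used.

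A chi-square test over genes gave 9.01 to 69.7 per degree of freedom between replicates, above the 1 that counting alone gives, so no library was a copy of another. The libraries held 14531438 to 15971178 counts, and 19295 to 22963 genes had at least 1 count. Mir322 and Mir503 had 0 counts in all 6 KO libraries. WT fat had 10 to 15 counts of Mir322 and 10 to 21 of Mir503 per library, and WT liver had 0 to 2 of Mir322 and 4 to 8 of Mir503. Mir351 was counted in every library, with 38 to 60 in KO fat and 9 to 13 in WT fat, and 11 to 17 in KO liver and 2 to 5 in WT liver. It was thus higher in every KO library than in any WT library of the same tissue, so these counts show no loss of this gene. All of these are reads over the microRNA genes, and the mature microRNAs were not measured. The extent of the deletion is not given in the sources used here, so KO below stands for libraries labelled KO, in which Mir322 and Mir503 had 0 counts. Adipoq (adiponectin) and the 10 adipocyte markers marked the fat libraries, with summed levels of 17897 to 23571 CPM in KO fat and 16008 to 20570 CPM in WT fat. The 10 hepatocyte markers marked the liver libraries, and in fat they reached a summed level of 3334 to 5386 CPM in KO fat and 2791 to 5073 CPM in WT fat, most in library 1 of each genotype. Alb by itself differed more between fat libraries than this sum. Scaled by library totals, it had 1977, 228 and 731 CPM in KO fat and 1863, 125 and 76.8 CPM in WT fat. Summed mesothelial markers were 350 to 466 CPM in KO fat and 289 to 375 CPM in WT fat. In liver they were 7.93 to 20.7 CPM in KO and 9.32 to 13.8 CPM in WT. Whether they bear on the fat depot named above was not tested. Levels in the text are CPM, that is counts scaled to library size after TMM factors, and levels per length are CPM per kilobase of the gene length in the file.

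Fat was a collagen-rich tissue in these libraries and liver was not. Collagen genes took 0.994%, 1.01% and 1.29% of all counts in KO fat and 0.922%, 0.858% and 1.09% in WT fat, against 0.121%, 0.122% and 0.101% in KO liver and 0.135%, 0.122% and 0.143% in WT liver. Every fat library was above every liver library, and within a tissue the genotypes overlapped in fat and in liver. The number of collagen genes with a mean of at least 100 CPM was 13 in KO fat and 13 in WT fat, but 1 in KO liver and 1 in WT liver. At a mean of at least 1 CPM there were 28 in each fat group, 23 in KO liver and 22 in WT liver. Col9a1 and Col9a2, chains of a cartilage collagen, had 0 counts in all libraries.

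**Figure D1:**
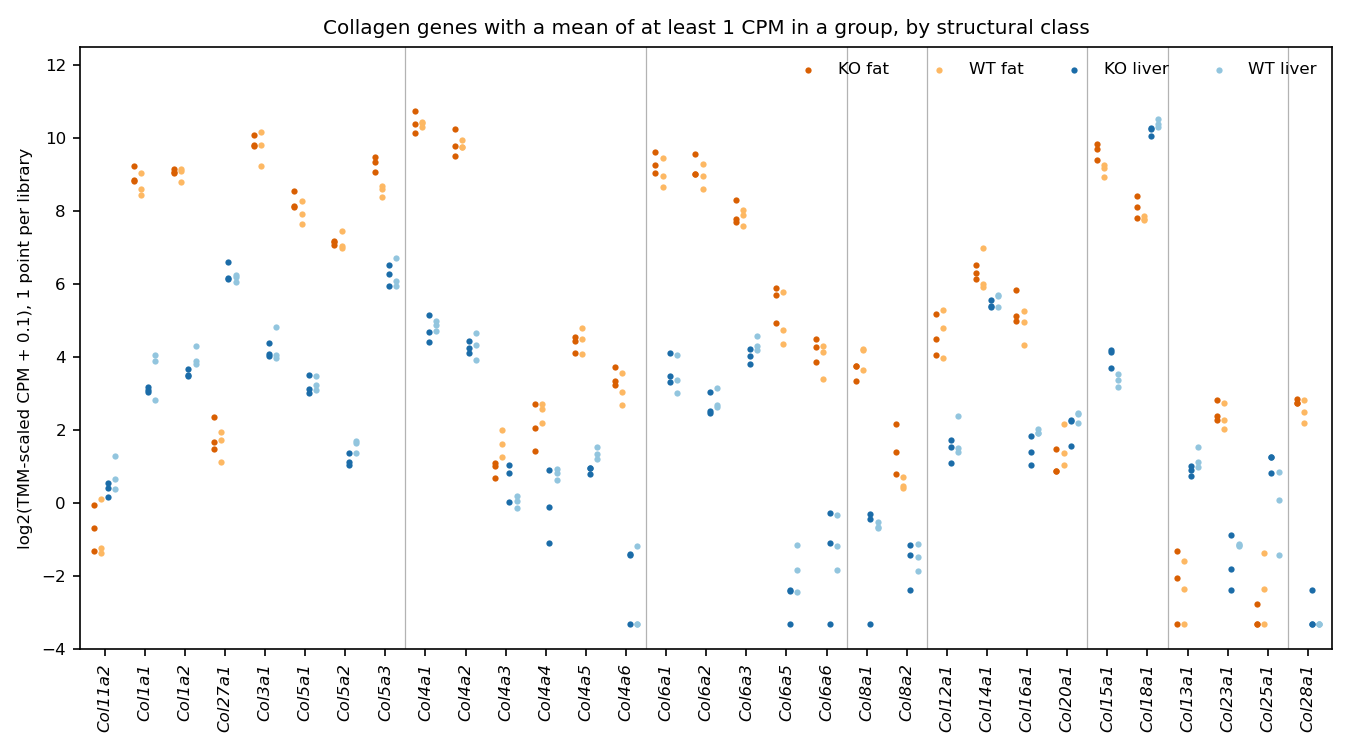
Level of each collagen gene with a mean of at least 1 CPM in a group, 1 point per library, as log2(CPM + 0.1), with vertical lines between structural classes. Most genes stand far higher in fat, while Col18a1 and Col27a1 stand higher in liver.

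Per length, Col4a1, a chain of the basement membrane network, led in fat with 187 ± 41.2 CPM per kilobase in KO fat and 180 ± 8.41 in WT fat (SD, n = 3 each). In KO fat the next were Col6a1 (147 ± 29.3), Col4a2 (142 ± 37.4) and Col15a1 (128 ± 19.0), and in WT fat Col4a2 (137 ± 9.56), Col6a1 (123 ± 34.2), Col3a1 (90.5 ± 28.1) and Col15a1 (88.3 ± 9.59). In WT fat Col4a1 stood above Col4a2 by more than their SDs, and the other neighbours named here lay within an SD of each other. The order below Col4a1 depended on the length used. With the longest annotated transcript Col3a1 came next, at 172 in KO fat and 160 in WT fat, above Col15a1 (157), Col6a1 (157) and Col4a2 (145) in KO fat and above Col4a2 (141), Col6a1 (131) and Col15a1 (108) in WT fat. Liver had a single leading gene. Col18a1, whose product carries the fragment endostatin, stood at 167 ± 14.2 CPM per kilobase in KO liver and 194 ± 15.7 in WT liver, and the next, Col5a3, at 11.3 ± 2.24 in KO liver and 11.5 ± 3.45 in WT liver.

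Grouped by structure, the summed level per length in KO fat was 32.3% fibrillar, 29.1% basement membrane network, 21.6% beaded filament and 14.8% multiplexin, the class of Col15a1 and Col18a1. In WT fat the shares were 30.5% fibrillar, 33.4% basement membrane network, 21.2% beaded filament and 12.4% multiplexin. In liver the multiplexins held 79.6% in KO and 80.8% in WT, and the fibrillar chains 10.8% in KO and 9.89% in WT. Col18a1 alone held 78.4% of the total in KO liver and 80.1% in WT liver. With the longest transcript fibrillar chains led in both fat groups, with 36.9% in KO fat and 35.8% in WT fat, and basement membrane chains had 25.1% in KO fat and 28.6% in WT fat, so the order of these classes in WT fat turned. The multiplexins then held 79.5% in KO liver and 80.8% in WT liver. The class shares describe the libraries and were not tested.

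**Figure D2:**
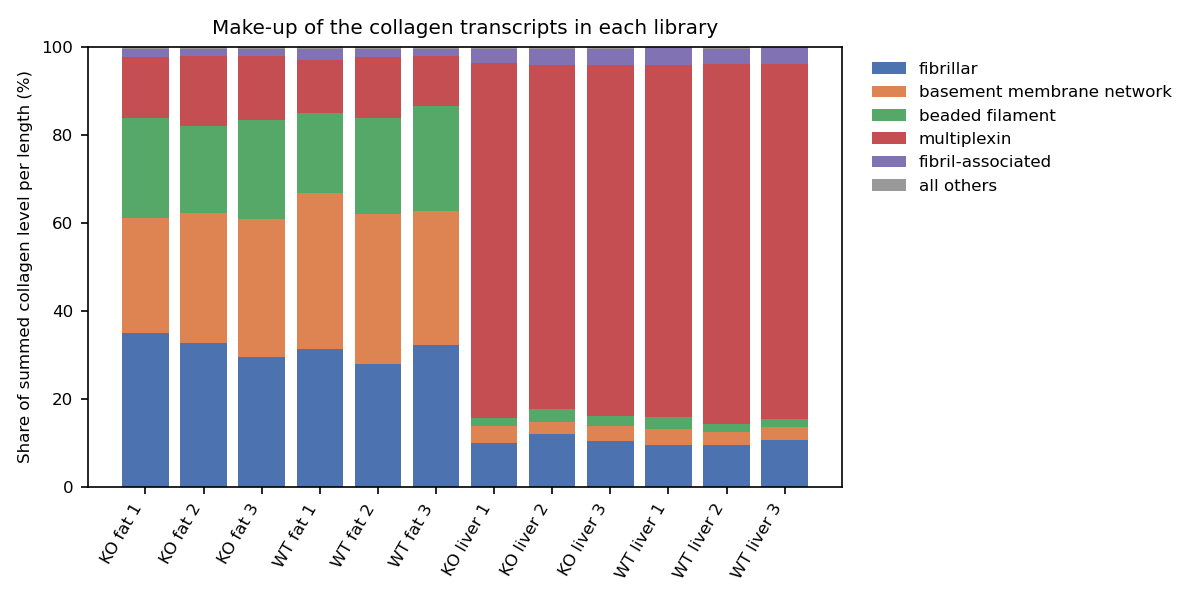
Share of the summed collagen level per length taken by each structural class, in percent, for the 12 libraries, 1 bar each. Fibrillar, basement membrane and beaded filament chains fill most of each fat bar, and multiplexins, mostly Col18a1, fill 78.2% to 80.6% of the KO liver bars and 79.9% to 81.6% of the WT liver bars.

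Chains that pair in 1 molecule can be compared as ratios of levels per length. Col4a1 to Col4a2, which combine in the common type IV molecule, had a ratio of 1.33 ± 0.0545 in KO fat, 1.31 ± 0.0806 in WT fat, 1.28 ± 0.400 in KO liver and 1.32 ± 0.215 in WT liver, although both genes were far lower in liver. Col6a3 to Col6a1 was 0.141 ± 0.00811 in KO fat and 0.163 ± 0.0429 in WT fat, against 0.490 ± 0.109 in KO liver and 0.696 ± 0.200 in WT liver, with every liver library above every fat library. Col5a3 to Col5a1 was 2.56 ± 0.293 in KO fat and 1.93 ± 0.228 in WT fat, against 10.6 ± 2.56 in KO liver and 10.3 ± 3.35 in WT liver. For Col1a1 to Col1a2, the chains of type I collagen, which chain was higher depended on the length used. The ratio was 1.76 ± 0.228 in KO fat and 1.55 ± 0.279 in WT fat with the gene length in the file, but 0.838 ± 0.109 in KO fat and 0.737 ± 0.133 in WT fat with the longest annotated transcript, because the file gives Col1a2 12426 bases and its longest transcript has 5348.

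Fat against liver gave far more collagen calls than KO against WT. Of 31 collagen genes tested, 24 were higher and 4 were lower in WT fat by edgeR's quasi-likelihood test at an adjusted p under 0.05. Among all 15715 genes tested, 37.3% were higher and 33.5% lower, and the median log2 fold change was 3.82 over the collagen genes and 0.05 over all genes. In KO mice 24 of 32 tested were higher and 5 lower, where 36.8% and 32.6% of 15648 genes were, with medians of 4.22 and 0.05. These counts and medians include Col4a6, Col6a5, Col6a6, Col8a1, Col8a2, Col23a1 and Col28a1, which were too low to be tested within liver. They passed the filter on low counts through fat, so their direction was largely set by it. Col13a1 and, in KO mice, Col25a1 passed through liver in the same way. The WT and KO lists shared 23 genes called higher, 95.8% of each, and 3 called lower, which is 75.0% of the WT list and 60% of the KO list. The KO list of lower genes includes Col25a1, which was not tested in WT mice. Scaled by library totals alone, the median of all genes moved to 0.88 in WT mice and 0.88 in KO mice. The calls of all genes then split into 9537 higher and 2695 lower in WT, where TMM gave 5866 and 5270, and into 9718 and 2556 in KO, where TMM gave 5757 and 5103. Under that scaling 25 collagen genes were called higher and 3 lower in WT mice, and 25 and 4 in KO mice. Fewer cells of a type and less RNA per cell cannot be told apart in bulk tissue. Summed markers of fibroblasts and adipose progenitors were 6035 to 12257 CPM in WT fat and 212 to 235 CPM in WT liver, with 12 of 12 called higher, and their part in the collagen difference was not tested.

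All 6 fibrillar chains of types I, III and V rose in WT fat against WT liver, and the same held in KO mice. Col1a1 (chr11:94936224-94953042, GRCm38) had 387, 350 and 531 CPM in WT fat, against 16.6, 6.98 and 14.8 CPM in WT liver. Its partner Col1a2 had 566, 442 and 544 CPM in WT fat, against 19.6, 14.0 and 14.7 CPM in WT liver. The groups are far apart for both, and the log2 fold changes were 5.03 ± 0.37 (SE; adjusted p = 1.46e-05) for Col1a1 and 4.99 ± 0.21 (3e-07) for Col1a2. Col3a1, whose homotrimers form fine fibrils, had 900, 607 and 1159 CPM in WT fat and 28.1, 15.6 and 16.6 CPM in WT liver. Col5a1, which takes part in starting fibrils, had 200, 241 and 307 CPM in WT fat and 8.45, 11 and 9.31 CPM in WT liver, and Col5a2 had 133, 127 and 176 CPM in WT fat and 3.14, 2.47 and 3.04 CPM in WT liver. The log2 fold changes of these were 5.45 ± 0.36, 4.68 ± 0.20 and 5.63 ± 0.19. Col5a3, a further chain of type V, had the smallest log2 fold change of these, 2.26 ± 0.22. Its level was 338, 388 and 412 CPM in WT fat and 61.6, 67.8 and 105 CPM in WT liver.

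Basement membrane chains rose as well. Col4a1 had 1380, 1270 and 1378 CPM in WT fat, against 31.6, 26.2 and 29.6 CPM in WT liver (log2 fold change 5.51 ± 0.18, adjusted p = 1.48e-07). Col4a2 had 872, 871 and 981 CPM in WT fat, against 25.2, 15.1 and 20.1 CPM in WT liver (5.48 ± 0.24). All 6 type IV chains tested were called higher in WT fat, and in KO mice 5 of 6. Of these chains, Col4a6 passed the filter on low counts through fat, so its direction was largely set by it. The exception in KO mice was Col4a3, a chain of specialised basement membranes such as the kidney's. It had 1.93, 2.03 and 1.5 CPM in KO fat and 1.67, 0.910 and 1.94 CPM in KO liver, which overlap. Its log2 fold change was 0.27 ± 0.40 in KO mice and 1.69 ± 0.38 in WT mice.

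Beaded-filament chains were called higher in fat in all 5 tests in both genotypes. Of these, Col6a5 and Col6a6 passed the filter on low counts through fat, so their direction was largely set by it. Col6a1 had 409, 501 and 702 CPM in WT fat, against 16.6, 7.92 and 10.2 CPM in WT liver. Col6a2 had 387, 496 and 622 CPM in WT fat, against 8.71, 6.13 and 6.36 CPM in WT liver, and its log2 fold change of 6.13 ± 0.26 was among the 4 largest in WT mice. The groups do not overlap for either gene. Col6a3, whose C-terminal fragment is endotrophin, had 237, 192 and 259 CPM in WT fat and 23.6, 19.7 and 18.3 CPM in WT liver (3.46 ± 0.17). Col6a5 (20.3, 26.6 and 54.8 CPM in WT fat and 0.349, 0.0851 and 0.179 CPM in WT liver) had a log2 fold change of 7.30 ± 0.63. Its 2057 counts over WT fat and 7 over WT liver give a ratio of 164, with a counting interval (95%, exact binomial) of 79.3 to 407. Col4a6 had 11.6, 6.33 and 8.15 CPM in WT fat and 0, 0.341 and 0 CPM in WT liver (6.12 ± 0.71). Over the alternatives the log2 fold change of Col4a6 ranged from 5.55 to 10.19. It had 539 counts over WT fat and 4 over WT liver, a ratio of 75.0 with a counting interval (95%, exact binomial) of 29.1 to 276. Col28a1, a collagen found beside peripheral glia, had 347 counts over WT fat and 0 over WT liver, which is at least 64.4-fold higher when 3 counts over the WT liver group are taken as the limit. That bound covers counting error only.

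Among the multiplexins the tissues were opposite. Col15a1, a component of the zone between basement membrane and fibrils, had 493, 580 and 610 CPM in WT fat, against 8.89, 11.4 and 10.2 CPM in WT liver (log2 fold change 5.76 ± 0.19, adjusted p = 1.48e-07). Col18a1 had 221, 232 and 215 CPM in WT fat, against 1339, 1261 and 1479 CPM in WT liver (log2 fold change -2.63 ± 0.16, adjusted p = 1.47e-06). In KO mice the log2 fold changes were 5.65 ± 0.23 for Col15a1 and -2.07 ± 0.20 for Col18a1. The ratio of Col15a1 to Col18a1 per length was 3.23 ± 0.202 in KO fat and 2.79 ± 0.338 in WT fat, against 0.0152 ± 0.00154 in KO liver and 0.00832 ± 0.00146 in WT liver.

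The 4 collagen genes lower in WT fat were Col18a1, Col27a1, Col13a1 and Col11a2. Col27a1, a fibrillar collagen with a shortened helix, had 3.74, 2.09 and 3.20 CPM in WT fat and 66.0, 76.2 and 72.6 CPM in WT liver (-4.59 ± 0.21, adjusted p = 4.02e-07). Col13a1, a transmembrane collagen, had 0.234, 0.0952 and 0 CPM in WT fat and 2.09, 2.81 and 1.88 CPM in WT liver (-4.26 ± 0.68). The WT fat values of Col13a1 are near or below the level of 3 counts in a library. Col11a2, a chain of cartilage fibrils, had 0.328, 0.285 and 0.980 CPM in WT fat and 1.48, 1.19 and 2.33 CPM in WT liver. The call of Col11a2 (-1.67 ± 0.57, adjusted p = 0.0264) was lost with library totals and without any of 4 single libraries, which are replicates 1 and 2 of WT fat and replicates 1 and 3 of WT liver. In those its adjusted p was between 0.0540 and 0.198. In KO mice Col20a1 (-0.99 ± 0.34) and the transmembrane Col25a1 were called lower, and Col11a2 was not (adjusted p = 0.0692). Col25a1 was not tested in WT mice, where it did not pass the filter on low counts, so its call cannot be set against WT. Col25a1 had 0, 0 and 0.0470 CPM in KO fat and 1.67, 2.28 and 2.31 CPM in KO liver. With 1 count over KO fat and 69 over KO liver, it was 127-fold lower in KO fat with a counting interval of 22.1 to 5094. The call of Col20a1 was lost with upper quartile factors, with library totals and with the replicate number as a block, and without replicates 1 or 2 of KO fat or of KO liver.

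**Figure D3:**
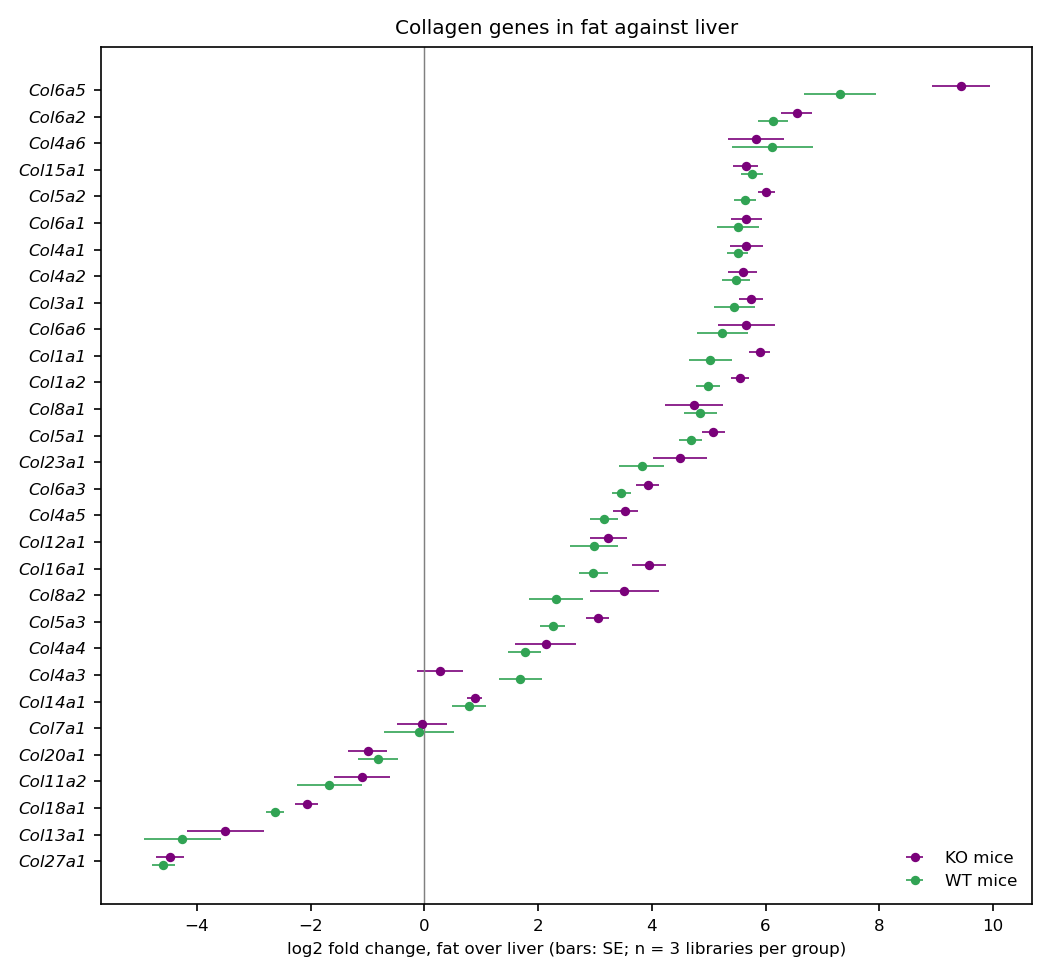
Log2 fold change of fat over liver for the collagen genes tested in WT mice and counted in every group, with SE bars, for KO mice and WT mice. Most genes lie right of 0, and Col27a1, Col13a1 and Col18a1 lie left of 0 in both genotypes.

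KO against WT fat asked how collagen transcripts differ between the genotypes in that tissue. In fat, 0 of 31 collagen genes tested passed an adjusted p of 0.05 by edgeR, where 0.0% of all 15919 genes did. At an unadjusted p under 0.05 there were 3 collagen genes higher and 1 lower, where 4.36% and 3.27% of all genes were. Those counts were 2 and 0 with the trend on GC share and gene length removed, and leaving out 1 library gave 2 to 7 higher, the most without replicate 3 of WT fat, and 0 or 1 lower. limma voom called 0 collagen genes, and DESeq2 called 1, Col5a3, among 50 genes in all. The signs ran 22 above and 9 below 0 in the 31, with a median log2 fold change of 0.15, where 49.6% of all genes were above 0 and the median was -0.00. All 6 beaded-filament chains, 7 of 8 fibrillar and both multiplexins were above 0, as were 3 of 6 basement membrane, 1 of 4 fibril-associated and 1 of 2 short network chains. After a correction for trends on GC share and gene length, the median of the collagen genes was 0.06. The summed collagen level was 7439, 7839 and 9621 CPM in KO fat and 6812, 6523 and 8187 CPM in WT fat, which overlap. Summed cholangiocyte markers, of which none was at 0, were 120 to 133 CPM in KO fat and 91.4 to 104 CPM in WT fat. Summed fibroblast and adipose progenitor markers overlapped, with 7094 to 9810 CPM in KO fat and 6035 to 12257 CPM in WT fat. Summed lymphocyte markers were 485 to 1070 CPM in KO fat and 196 to 1046 CPM in WT fat, and 10 of 10 hepatocyte markers were above 0. The part of these in the collagen values was not tested.

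Col5a3 (chr9:20770050-20815067) had the smallest p in fat. It had 538, 657 and 716 CPM in KO fat, against 338, 388 and 412 CPM in WT fat. Every KO library lay above every WT library, and the log2 fold change was 0.76 ± 0.16 (unadjusted p = 0.00138, adjusted p = 0.601 by edgeR and 0.00160 by DESeq2). It was 0.48 ± 0.17 after removal of the GC and length trend. Col15a1 (chr4:47208161-47313167) had 681, 836 and 918 CPM in KO fat, against 493, 580 and 610 CPM in WT fat. These groups do not overlap either, and its log2 fold change was 0.54 ± 0.17 (unadjusted p = 0.0119, adjusted p = 0.649). Without the 2 fat libraries with most Alb, which are replicate 1 of each genotype, the log2 fold changes were 0.78 ± 0.14 for Col5a3 (adjusted p = 0.174) and 0.56 ± 0.15 for Col15a1 (0.179).

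Both other fat genes under an unadjusted p of 0.05 were low in level. Col8a2, a chain of the short network of Descemet's membrane, had 1.63, 4.36 and 2.54 CPM in KO fat and 1.22, 1.28 and 1.55 CPM in WT fat (1.08 ± 0.41, adjusted p = 0.649). Col4a3 had 1.93, 2.03 and 1.5 CPM in KO fat and 3.88, 2.28 and 2.99 CPM in WT fat (-0.74 ± 0.32, adjusted p = 0.649). In both genes KO and WT libraries do not overlap, with Col8a2 higher and Col4a3 lower in KO fat. Groups of 3 against 3 did not overlap in 3 collagen genes higher and 1 lower in KO fat, where 7.16% and 7.40% of all genes did.

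Of the 13 genes with a mean of at least 100 CPM in fat, the 11 other than Col5a3 and Col15a1 overlapped between the genotypes. Col4a1 had 1121, 1332 and 1727 CPM in KO fat, against 1380, 1270 and 1378 CPM in WT fat (0.06 ± 0.20), and Col4a2 had 725, 880 and 1210 CPM in KO fat, against 872, 871 and 981 CPM in WT fat (0.06 ± 0.21). Col1a1 had 463, 456 and 605 CPM in KO fat, against 387, 350 and 531 CPM in WT fat (0.27 ± 0.20). Col1a2 had 531, 538 and 567 CPM in KO fat, against 566, 442 and 544 CPM in WT fat (0.08 ± 0.15). Library 3 of KO fat was the highest of its group for each of these 4 genes. Col3a1 had 1093, 906 and 878 CPM in KO fat, against 900, 607 and 1159 CPM in WT fat (0.12 ± 0.24), so the order of libraries differed from that of type I. For Col5a1 the values were 278, 282 and 375 CPM in KO fat, against 200, 241 and 307 CPM in WT fat (0.33 ± 0.19), and for Col5a2 146, 134 and 142 CPM in KO fat, against 133, 127 and 176 CPM in WT fat (-0.04 ± 0.15). Both type V chains overlap as well. Col6a1 had 611, 532 and 783 CPM in KO fat, against 409, 501 and 702 CPM in WT fat (0.27 ± 0.23). Col6a2 (520, 518 and 755 CPM in KO fat, 387, 496 and 622 CPM in WT fat) had a log2 fold change of 0.26 ± 0.22 and Col6a3 (221, 207 and 318 CPM in KO fat, 237, 192 and 259 CPM in WT fat) of 0.12 ± 0.20. Col18a1 had 224, 277 and 339 CPM in KO fat, against 221, 232 and 215 CPM in WT fat (0.34 ± 0.17, unadjusted p = 0.0743). The adjusted p-values of these 11 genes were between 0.659 and 0.955.

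KO against WT liver gave 0 edgeR calls among the 24 collagen genes tested, where 0.155% of 13529 genes passed. DESeq2 and limma voom called 0 too. At an unadjusted p under 0.05 there were 1 collagen gene higher and 1 lower, where 5.97% and 6.24% of all genes were. Removing the trend on GC share and length gave 2 and 0, and leaving out 1 library gave 1 or 2 higher and 0 to 3 lower, with 0 lower without replicate 1 of WT liver and 3 without replicate 2 of WT liver. The signs ran 5 above and 19 below 0, with a median log2 fold change of -0.20, where 50.1% of all genes were below 0 and the median was -0.00. Fibrillar chains were below 0 in 7 of 8, and basement membrane chains in 4 of 5, as were 2 of 3 beaded-filament, 4 of 4 fibril-associated, 1 of 2 multiplexin and 1 of 2 transmembrane chains. Removing the trend on GC share and length left a median of -0.14. The summed collagen level was 1610, 1635 and 1387 CPM in KO liver and 1733, 1609 and 1889 CPM in WT liver, and most of it is Col18a1. Groups did not overlap in 1 collagen gene higher and 5 lower, where 10.2% and 8.84% of all genes did.

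Col15a1 was the only collagen gene whose KO liver libraries all lay above the WT liver libraries. It had 18.2, 17.6 and 12.8 CPM in KO liver, against 8.89, 11.4 and 10.2 CPM in WT liver. The log2 fold change was 0.66 ± 0.19 (unadjusted p = 0.00369, adjusted p = 0.225). With no filter on low counts its adjusted p was 0.0433, and over the alternatives it ranged from 0.0433 to 0.501. It is the only collagen gene whose KO and WT libraries did not overlap in both tissues, higher in each, which was so for 0.236% of the 12706 genes tested in both. The difference of its log2 fold changes between the tissues was -0.14 ± 0.24.

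**Figure D4:**
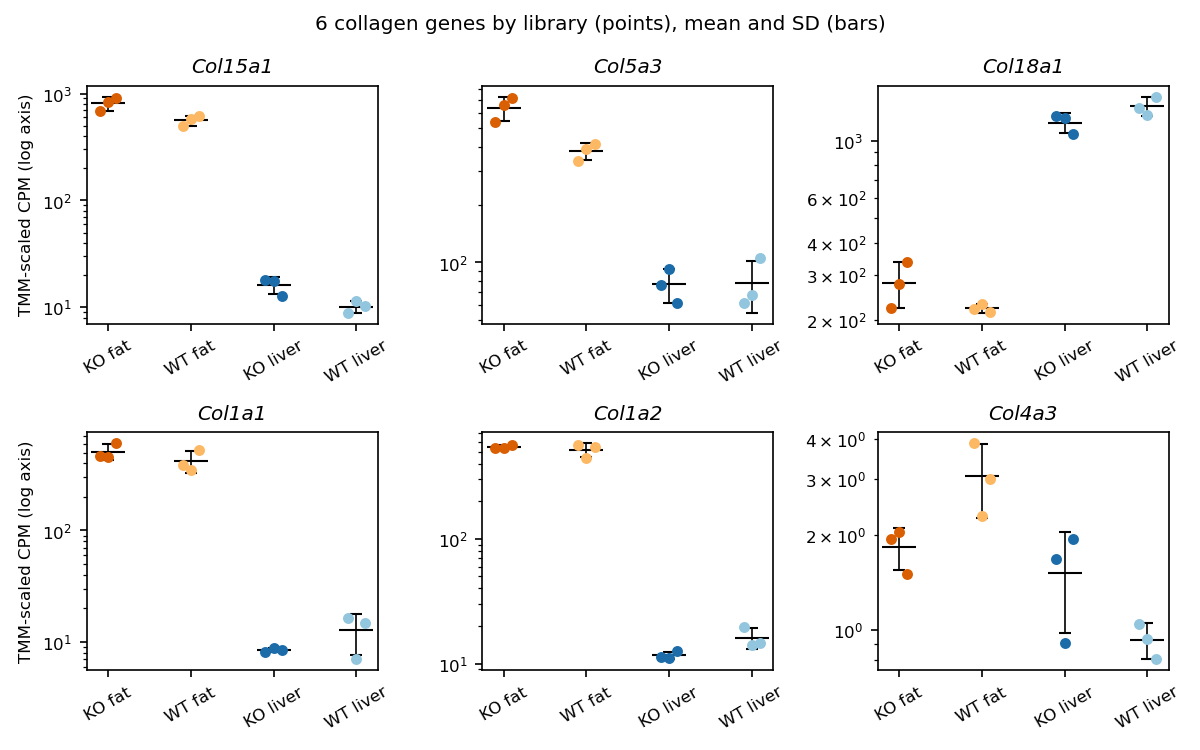
CPM on a log axis for 6 collagen genes in KO fat, WT fat, KO liver and WT liver. Points are libraries, horizontal marks the mean and bars the SD. Col15a1 stands higher in KO than in WT in both tissues, and Col18a1 is the gene with most transcripts in liver.

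The chains of type I collagen had lower means in KO liver, without passing the test. Col1a2 had 11.3, 11 and 12.6 CPM in KO liver, against 19.6, 14.0 and 14.7 CPM in WT liver, with groups that do not overlap and a log2 fold change of -0.48 ± 0.18 (unadjusted p = 0.0184, adjusted p = 0.315). Col1a1 had 8.20, 8.92 and 8.49 CPM in KO liver, against 16.6, 6.98 and 14.8 CPM in WT liver, which overlap (-0.59 ± 0.28, unadjusted p = 0.0597). Col18a1 had 1244, 1218 and 1060 CPM in KO liver, against 1339, 1261 and 1479 CPM in WT liver (-0.22 ± 0.10, unadjusted p = 0.0525), and removing the trend on GC share and length turned it to 0.03. The direction for Col18a1 thus depends on that correction. Summed hepatocyte markers were 148379 to 150590 CPM in KO liver and 160267 to 170227 CPM in WT liver, and their part was not tested. In the other direction, cholangiocyte markers were 142 to 152 CPM in KO liver and 116 to 137 CPM in WT liver, with 3 above and 4 below 0. Keratinocyte and skin markers were 2.38 to 3.51 CPM in KO liver and 3.83 to 7.34 CPM in WT liver. Summed markers of hepatic stellate cells, the main collagen-making cells of liver, were 446 to 474 CPM in KO liver and 509 to 530 CPM in WT liver, without overlap. Of the 12 markers, 2 were above and 10 below 0, none was at 0 counts in a group and 0 were called. The same markers summed to 895 to 1173 CPM in KO fat and 979 to 1401 CPM in WT fat, so they do not mark stellate cells alone. The part of these marker sums in the collagen values was not tested.

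Most other liver collagens overlapped between the genotypes. Col3a1 had 16.7, 20.7 and 16.2 CPM in KO liver, against 28.1, 15.6 and 16.6 CPM in WT liver (-0.18 ± 0.23). Col5a1 had 11.2, 8.56 and 7.94 CPM in KO liver, against 8.45, 11 and 9.31 CPM in WT liver, and Col5a2 had 2.47, 2.09 and 1.94 CPM in KO liver, against 3.14, 2.47 and 3.04 CPM in WT liver. Their log2 fold changes were -0.06 ± 0.20 and -0.42 ± 0.32, the last with libraries that do not overlap. Col4a1 (35.8, 21.3 and 25.6 CPM in KO liver, 31.6, 26.2 and 29.6 CPM in WT liver) and Col4a2 (19.0, 21.8 and 17.3 CPM in KO liver, 25.2, 15.1 and 20.1 CPM in WT liver) had log2 fold changes of -0.09 ± 0.17 and -0.06 ± 0.18. These basement membrane chains were close in both genotypes. Col6a1 (9.78, 17.1 and 11.1 CPM in KO liver, 16.6, 7.92 and 10.2 CPM in WT liver), Col6a2 (5.38, 8.19 and 5.63 CPM in KO liver, 8.71, 6.13 and 6.36 CPM in WT liver) and Col6a3 (16.3, 18.6 and 14.0 CPM in KO liver, 23.6, 19.7 and 18.3 CPM in WT liver) had 0.12 ± 0.30, -0.15 ± 0.25 and -0.34 ± 0.16. Col5a3 had 76.7, 92.2 and 61.7 CPM in KO liver, against 61.6, 67.8 and 105 CPM in WT liver (-0.03 ± 0.24). For Col4a1, Col4a2, Col5a1 and Col5a3 the sign turned when the trend on GC share and length was removed.

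**Figure D5:**
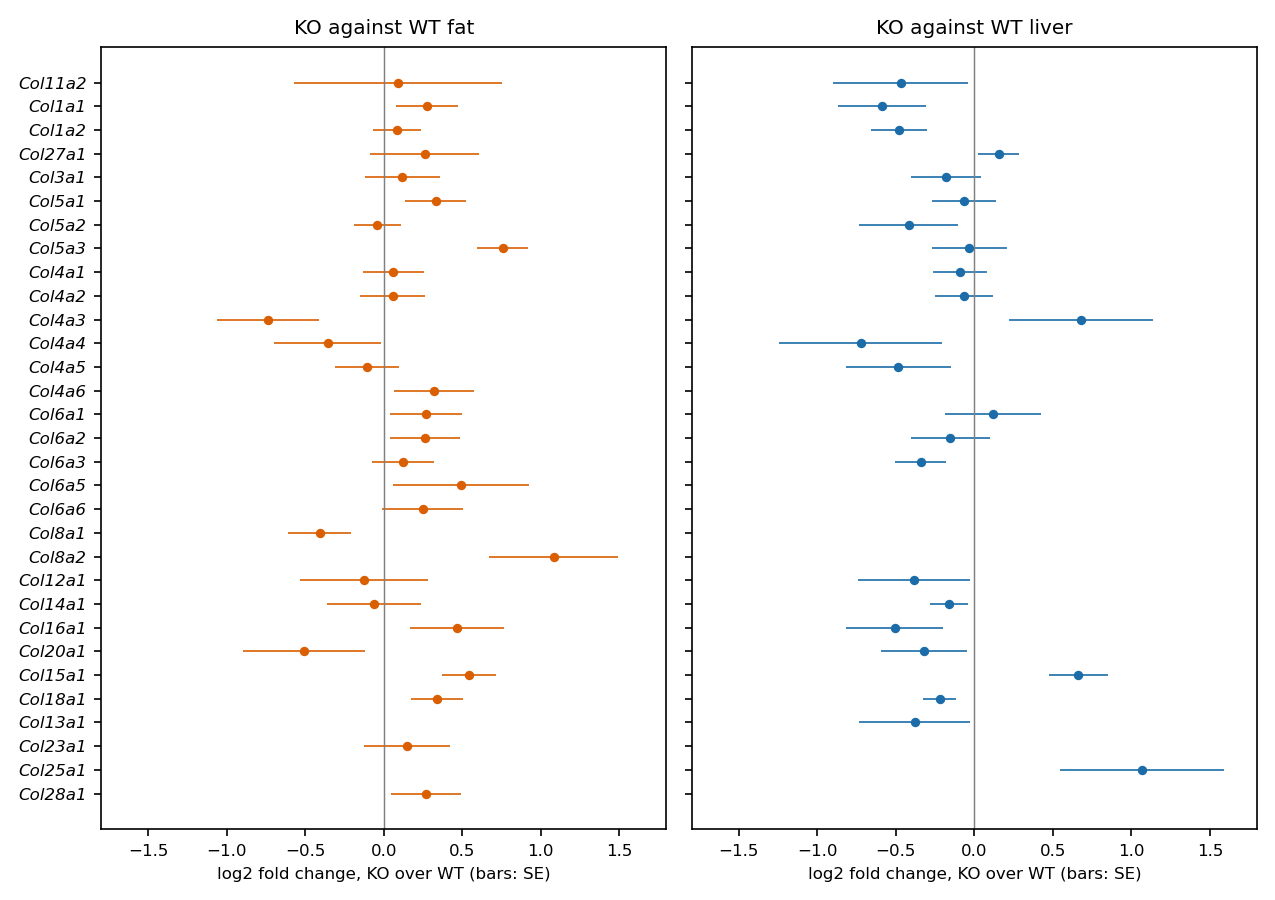
Log2 fold change of KO over WT, with SE bars, in fat (left) and liver (right) for collagen genes with a mean of at least 1 CPM in a group. Genes with no point in a panel were not tested there. Most bars cross or lie close to 0, and Col15a1 is right of 0 in both panels.

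The genotype difference was set against tissue in a fit of all 12 libraries, as fat minus liver. Of 33 collagen genes tested, 0 passed an adjusted p of 0.05, where edgeR called 0.0% of 16857 genes. At an unadjusted p under 0.05 the difference was above 0 in 5 collagen genes and below 0 in 2, where that held for 6.88% and 6.5% of all genes, and DESeq2 and limma voom called 0. With the trend on GC share and length removed those counts were 0 and 2. Leaving out 1 library gave 1 to 8 above 0, with 1 without replicate 3 of KO liver or of WT liver and 8 without replicate 3 of WT fat, and 1 or 2 below 0. The sign was above 0 in 26 of 33, where 49.9% of all genes were. The median was 0.36, where that of all genes was -0.00, and it was 0.16 with the trend on GC share and length removed. These counts, signs and medians include genes too low to be tested within 1 tissue. They were Col4a6, Col6a4, Col6a5, Col6a6, Col7a1, Col8a1, Col8a2, Col23a1 and Col28a1 in liver, and Col13a1 and Col25a1 in fat. Their differences are poorly measured, as in Col6a4 (0.42 ± 778) and Col6a5 (2.11 ± 1.73). The smallest p-values were those of Col4a3 (-1.44 ± 0.53, adjusted p = 0.282), Col5a3 (0.77 ± 0.29, 0.290) and Col1a2 (0.55 ± 0.21, 0.304).

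Collagen genes with a miR-322 match in the longest 3′ UTR had medians below 0 in both tissues, with single genes in either direction. This is a description with no test. In liver the 6 tested had a median log2 fold change of -0.22 and the collagen genes with no match -0.20. In fat the 5 tested had -0.13, ranging from -0.74 to 0.33, and those without 0.20. With the shortest annotated 3′ UTR the order in fat turned, with 0.27 for the 3 tested with a match and 0.13 for those without, and in liver the values were -0.59 for 3 and -0.18. The 8mer gene Col4a4 had 2.60, 6.44 and 4.04 CPM in KO fat, against 5.90, 4.47 and 6.5 CPM in WT fat (-0.36 ± 0.34). In liver it had 1.76, 0.819 and 0.369 CPM in KO, against 1.66, 1.45 and 1.79 CPM in WT (-0.72 ± 0.52). Col12a1, a fibril-associated chain, had 22.2, 16.6 and 36.4 CPM in KO fat, against 15.7, 27.9 and 39.4 CPM in WT fat (-0.13 ± 0.41). The highest log2 fold change in liver was that of Col25a1, with 1.67, 2.28 and 2.31 CPM in KO liver, against 0.958, 1.70 and 0.269 CPM in WT liver (1.07 ± 0.52, unadjusted p = 0.0624). Col23a1, a transmembrane collagen with a miR-351 match, had 4.73, 6.98 and 5.12 CPM in KO fat, against 6.60, 4.71 and 3.97 CPM in WT fat (0.15 ± 0.27). All 3 of these overlap between KO and WT.

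Around the collagens, the pathway was described by lists of genes. The first list was on chain modification, folding and secretion. The others were of processing and crosslinking enzymes, proteases and inhibitors, receptors, fibril partners, basement membrane partners and growth factor signals. By edgeR 0 genes of these lists passed in either KO-against-WT comparison. In fat, where 49.6% of all genes were above 0, 2 of 12 receptor genes and 2 of 14 proteases and inhibitors were. Growth factor signals were above 0 in 6 of 22, fibril partners in 11 of 29 and basement membrane partners in 7 of 16. Processing and crosslinking genes were above 0 in 9 of 15, and those for chain modification, folding and secretion in 10 of 20. Ddr2, a receptor tyrosine kinase activated by fibrillar collagen, had 121 ± 11 CPM in KO fat and 177 ± 31.7 CPM in WT fat (-0.54 ± 0.16, unadjusted p = 0.00799, adjusted p = 0.649). Its relative Ddr1 had a log2 fold change of 0.57 ± 0.20, with libraries that overlap between KO and WT fat. Lox, which crosslinks fibrils, had 77.0 ± 7.04 CPM in KO fat and 103 ± 25.7 CPM in WT fat (-0.40 ± 0.18), and its libraries overlap too. Thbs2, a matricellular protein that affects fibril assembly, had 81.3 ± 23.6 CPM in KO fat and 158 ± 47.4 CPM in WT fat (-0.96 ± 0.28). In liver the lowest p of all lists was that of Lamb3, a laminin chain, with 9.01 ± 1.97 CPM in KO liver and 16.1 ± 1.39 CPM in WT liver (-0.85 ± 0.19, adjusted p = 0.135). Ltbp4, which holds latent growth factor in the matrix, had 78.5 ± 6.61 CPM in KO liver and 98.4 ± 6.32 CPM in WT liver (-0.34 ± 0.10). Crtap and P4ha2, both of the list on chain modification, folding and secretion, had -0.58 ± 0.23 and -0.50 ± 0.20 in liver. That list had 15 of 20 genes below 0 in liver, where 50.1% of all genes were. The other lists, in the order above, had 7 of 11, 4 of 9, 4 of 10, 12 of 22, 10 of 16 and 9 of 20 below 0. In WT fat against WT liver, where 37.3% of all genes were called higher and 33.5% lower, processing and crosslinking genes were higher in 13 of 14 and lower in 1. Fibril partners were higher in 26 of 28 and lower in 1, and basement membrane partners higher in 13 of 16 and lower in 2. Receptors were higher in 10 of 12, proteases and inhibitors in 11 of 14 and growth factor signals in 16 of 21, with 1 lower in each. Some genes of these lists were too low to be tested within liver, so their direction was largely set by the filter on low counts. Tested within liver were 11 processing and crosslinking genes, 22 fibril partners, 10 receptors, 9 proteases and inhibitors and 20 growth factor signals. Of the genes for chain modification, folding and secretion 11 of 20 were higher and 6 lower, and 6 of 20 is near the share over all genes.

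All 44 collagen genes carry a run of glycine codons at every 3rd position in their coding sequence (GENCODE M21). In 9 fibrillar genes the longest run is 337 to 344 triplets, in Col24a1 216 and in Col27a1 217, and the type IV genes are broken into 16 to 19 runs of at least 10 with the longest of 39 to 66. Neighbouring collagen genes lie head to head at Col4a1 and Col4a2 (chromosome 8, starts 21 bases apart), Col4a4 and Col4a3 (chromosome 1, 72 bases) and Col4a6 and Col4a5 (X chromosome, 1309 bases). The mean ratios of the first pair, given above, lay between 1.28 and 1.33 in the 4 groups. Col4a1 and Col4a2 overlap at their starts on opposite strands, and without the counting's strand setting reads there cannot be assigned to one of them. The same holds for Col4a3, with 382 counts over all libraries where the opposite-strand C430014B12Rik had 184, and to a small extent for Col18a1, with 116630 where Slc19a1 had 4528. Col20a1 (619 counts) overlaps 9230112E08Rik (835 counts) on its own strand. The window of 250 bases before to 50 after the Col4a2 start (RefSeq, GRCm38.p6, chr8:11312555-11312854, plus strand) is shown because both genes start within it, with the motif CCAAT in capitals.

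Col4a2 promoter: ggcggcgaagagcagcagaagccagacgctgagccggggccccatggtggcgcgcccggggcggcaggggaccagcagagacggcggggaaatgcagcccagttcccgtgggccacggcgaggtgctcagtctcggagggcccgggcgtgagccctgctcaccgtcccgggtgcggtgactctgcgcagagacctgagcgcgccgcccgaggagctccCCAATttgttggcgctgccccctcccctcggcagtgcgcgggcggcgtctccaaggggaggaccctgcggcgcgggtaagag

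RefSeq promoter windows of the same length were found for 35 of the 44 genes, 38 windows in all. CCAAT on either strand occurred in 34.2% of them and in 37.4% of 32851 promoters, GGGCGG in 60.5% and 35.7%, and TATAAA in 13.2% and 13.6%. The 11 genes with too few counts for the main comparisons were Col2a1, Col9a1, Col9a2, Col9a3, Col10a1, Col11a1, Col17a1, Col19a1, Col22a1, Col24a1 and Col26a1, with at most 1.09 CPM in a library. That value was Col17a1 in KO fat, a skin hemidesmosome protein with 0.102, 1.09 and 0.846 CPM there and 0.187, 0.143 and 0.103 CPM in WT fat. Without the 2 fat libraries with most Alb, the KO fat value of 0.102 CPM dropped out. Col17a1 then passed the filter on low counts, but only through KO fat. Its log2 fold change was 2.91 ± 0.71 (unadjusted p = 0.00558, adjusted p = 0.174 by edgeR). That value rests on which libraries were left out and on how the filter was passed, so no difference can be read from it.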

How the data were processed

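Total RNA was made into directional libraries (2 µg, NEBNext kit), per the labels' protocols. The submitters' processing notes name CASAVA 1.8, HISAT2, GRCm38 and mm10. The authors deposited whole-number read counts per gene, without normalization as far as the values show. Neither the counting program nor its strand setting is stated in the labels or headers used. Of 54532 genes, 54409 were found in GENCODE M21. Columns were matched to samples by name.

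The main test was edgeR's robust quasi-likelihood F test (version 4.0.16, in R 4.3.3) after filterByExpr and TMM scaling, called at a Benjamini-Hochberg adjusted p under 0.05, each comparison fitted on the groups it is about and the tissue difference on all 12 libraries. Every p-value is from that test unless another tool is named. The SE of a log2 fold change is its absolute value divided by the square root of the F statistic, and not an SE estimated by the fit. Figures used matplotlib 3.10.9. DESeq2 1.42.0 and limma voom 3.58.1 were alternatives, beside other scalings, filters, a replicate block, removal of GC and length trends (lowess span 0.3) and leaving out each library. The longest transcript length and fat without the 2 libraries with most Alb were added after seeing the data. The scripts were tested on simulated counts. Per-library values are given for the major chains of types I, III, IV, V, VI, XV and XVIII, the 3 smallest p-values in each genotype contrast, the 4 largest WT tissue folds in each direction and measurable genes with a seed match, and pathway genes are named from the 2 smallest p-values of a list. Col8a2, Col17a1, Col20a1 and ratios beyond these were chosen after their values were seen. Members and lists were chosen with earlier results of these data known. At these depths 3 counts in a library, the limit a count of 0 allows, are 0.188 to 0.206 CPM of library totals. Bounds cover counting error only.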

Additional observations from a re-analysis of the deposited data

How the results depend on the processing

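KO against WT gave 0 collagen calls in every alternative run, except Col15a1 in liver with no filter (1 gene, adjusted p = 0.0433) and Col5a3 in fat with DESeq2 (1 gene). The median log2 fold change of the collagen genes ranged from 0.03 to 0.30 in fat and from -0.31 to -0.11 in liver. Over all genes, liver calls were 21, but 378 with no filter, 138 with DESeq2, 3 with limma voom, 3 without the robust step, 4 with the GC and length trend removed (10 with the block too), 1 with all 4 groups in 1 fit, and 5 to 34 without 1 library. In fat the 0 calls became 29 with no filter, 50 with DESeq2, 3 with all 4 groups and 1 without WT fat replicate 2. For the tissue difference they became 21 with no filter, 210 with DESeq2, and 1, 25 and 34 without WT liver 1, KO fat 1 and WT fat 1. In fat the same-number correlations of deviations between KO and WT libraries (0.0877, 0.165 and 0.0709) lay above every different-number one (-0.205 to 0.0507). In liver the same-number values (-0.0271, -0.0250 and 0.0381) lay among the different-number ones (-0.0596 to 0.0782). Whether a shared number marks a batch, or 1 mouse for fat and liver, the labels do not say. The replicate block left 0 collagen calls in both tissues and the difference, and gave 25 higher and 4 lower in WT and 24 and 4 in KO tissue comparisons. Without the GC and length trend the sign turned in liver for Col18a1 (0.028, and 0.029 with the replicate block), Col4a1 (0.082, 0.058), Col4a2 (0.18, 0.20), Col5a1 (0.11, 0.11) and Col5a3 (0.23, 0.26), and in fat for Col1a2 (-0.044, -0.039), Col4a1 (-0.12, -0.12) and Col4a2 (-0.20, -0.20), and with the block for Col5a2 (0.010). Leaving out 1 library turned the sign within these ranges: in liver Col3a1 -0.34 to 0.15, Col4a1 -0.32 to 0.060, Col4a2 -0.24 to 0.13, Col5a1 -0.22 to 0.046, Col5a3 -0.19 to 0.24, Col6a1 -0.17 to 0.48 and Col6a2 -0.38 to 0.029, in fat Col1a2 -0.027 to 0.15, Col3a1 -0.10 to 0.34, Col4a1 -0.12 to 0.19, Col4a2 -0.17 to 0.20, Col5a2 -0.14 to 0.11 and Col6a3 -0.093 to 0.24, and for the difference Col15a1 -0.28 to 0.016. The summed collagen level per kilobase was 1504 in KO fat, 1295 in WT fat, 159 in KO liver and 184 in WT liver with library totals, and 1431, 1229, 268 and 303 with the longest transcript. In the shortest UTR 5 genes had a miR-322 match and 1 a miR-351 match, and as 8mers 1 and 0 did. The causes were not tested. Genes near 3 counts per library are limited by depth.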
